A study of Sebastes schlegelii with 6 samples.

Results

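The growth hormone, IGF1 and SOCS axis was followed in the liver of a marine fish, the Korean rockfish Sebastes schlegelii, after 72 days of starvation or of feeding. Its members were taken from the deposited count table as every gene whose symbol, ignoring case and a paralog letter, is igf1, igf2, ghr, igf1r, igfals, socs1, socs2, socs3, cish or stat5b. All 10 names were found, 6 of them on a pair of genes, which gave 16 members of 19303 genes in the table. Where a name has several genes, each is given with the last digits of its deposited ID, so that GHR 10008322 stands for S.schlegelii_GLEAN_10008322. There were 3 starved and 3 fed libraries of whole liver, all from the same tissue and the same duration. The labels give no strain, age, sex or tank, and do not say whether each library came from a separate fish or a pool, so a p-value reflects library-to-library spread alone, which may be technical.

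Growth hormone from the pituitary binds its receptor on liver cells, where the kinase JAK2 phosphorylates the transcription factor STAT5B. In mammals and fish this raises transcription of igf1, whose product is secreted and drives growth of muscle and skeleton. STAT5 also induces the SOCS proteins and CISH, which bind the activated receptor and shut the signal off, and fasting is known in many vertebrates to lower circulating IGF1 while growth hormone stays high.

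Total counts ranged from 13469708 to 14716282 in starved and from 11623356 to 13029074 in fed libraries. Fed replicate 1 differed most from the rest. Across genes, its log2 CPM (counts scaled to library size by the TMM method) had Pearson r of 0.876 and 0.891 with fed replicates 3 and 2, against 0.953 to 0.956 among starved libraries and 0.951 between fed replicates 2 and 3. Spliced reads were 41.7% of its uniquely mapped reads, against 50.7% to 53.3% elsewhere. The TMM factor of fed replicate 1 was 0.7426, against 0.9265 to 1.213 elsewhere. A lower factor gives a higher CPM for the same share of counts, which bears on the marker sums below. The summed level of 23 hepatocyte marker genes was 158947 to 196649 CPM in starved libraries and 135722, 176304 and 275529.5 CPM in fed libraries, the last in fed replicate 1, and no marker was at 0 in all libraries, so the tissue label held; 1 of the 22 tested, AHSG, fell. Of 11 stellate and fibroblast marker genes, 4 of 6 tested fell (COL1A1 in both genes, col1a2 and LUM), with summed levels of 97.4 to 118 CPM in starved and 276 to 418 CPM in fed libraries. Among markers of endothelium, macrophages, bile duct, red cells, exocrine pancreas and lymphocytes, 0 of 29 tested genes passed. Sums of some lists still differed between single libraries, which a test between groups does not show. Exocrine pancreas sums were 16.6, 20.1 and 338 CPM in starved libraries, against 8.12, 67.6 and 9.24 CPM in fed libraries. Red cell sums were 185, 257 and 985 CPM, against 1334, 470.1 and 1021 CPM. Bile duct sums were 385 to 666 CPM in starved and 695 to 1090.0 CPM in fed libraries. The part of these differences in the results below was not tested, and in bulk liver fewer cells of a type and less RNA per cell cannot be told apart.

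The comparison of starved with fed liver asks which steps of the axis changed at the transcript level. SOCS2, a brake on the growth hormone receptor, rose 10-fold in starved liver, while 1 of the pair of SOCS3 genes fell 3.31-fold. The genes for the hormones and their plasma carrier had lower means in starved liver, 2.80-fold for igf1, 5.94-fold for igf2 and 2.41-fold for Igfals, without passing the test over all 6 libraries. Receptor and STAT5B genes had fold changes of at most 1.71 in either direction among those tested. Leaving out fed replicate 1, igf1, igf2, Igfals, a growth hormone receptor gene and a STAT5B gene also passed, all lower in starved liver. That omission raised the share of all tested genes called from 5.16% to 12.3%. The SOCS2 call ended when any other single library was left out (edgeR adjusted p from 0.053 to 0.0879). The SOCS3 call ended without fed replicate 2 or any 1 starved library (edgeR adjusted p from 0.0797 to 0.119).

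Counts were tested over 13338 genes with edgeR's quasi-likelihood test and Benjamini-Hochberg adjustment, starved minus fed, and a gene was called at an adjusted p under 0.05. Of the 16 members, 15 passed the filter on low counts. Of these, 1 rose, 1 fell and 13 did not pass, where 5.16% of all tested genes were called, 2.18% higher and 2.98% lower. The groups did not overlap for 5 of the 15, against 31.1% of all tested genes, which is near the background. The median log2 fold change was -0.30 over the 15 members and -0.03 over all tested genes. The median size of change, ignoring direction, was 1.27 and 0.45 on the log2 scale. These sizes include genes with wide errors, such as CISH 10003528 at -1.94 ± 1.52 (SE), and the difference in size was not tested. Without fed replicate 1, all 16 were tested, 1 rose and 6 fell, with a background of 12.3% called, 5.81% higher and 6.5% lower. When any of the other 5 libraries was left out instead, 0 members rose and at most 1 fell, while the genes called over the whole table numbered 50 to 158 higher and 49 to 311 lower, against 291 and 397 with all libraries. With the DESeq2 Wald test 2 rose (background 5.27%) and 3 fell (background 7.16%), and in limma with quality weights 1 rose (background 6.82%) and 6 fell (background 7.81%). The authors' deposited table rests on the same libraries. It gives a q-value under 0.05 to igf2, Igfals, SOCS2 and both SOCS3 genes. These are 5 of the 16 members, against 9.49% of its genes with a q-value.

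**Figure D1:**
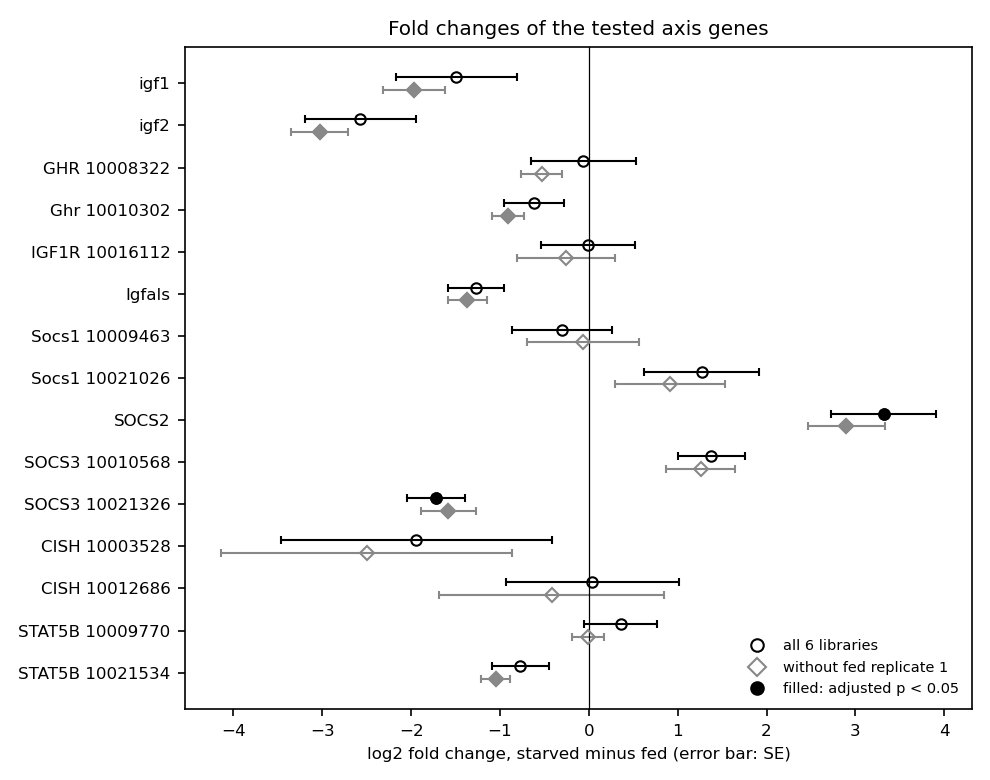
Log2 fold change, starved minus fed, of the 15 tested axis genes, one row per gene, with its standard error (edgeR). Black circles use all 6 libraries and grey diamonds leave out fed replicate 1; filled symbols passed at an adjusted p under 0.05. SOCS2 lies farthest to the right at 3.32 and SOCS3 10021326 at -1.72, and igf1, igf2, Igfals, Ghr 10010302 and STAT5B 10021534 are filled only in grey.

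At the head of the axis are 2 growth hormone receptor genes. GHR 10008322 had 44.3, 72.6 and 52.1 CPM in starved replicates 1, 2 and 3, against 13, 83.4 and 79.2 CPM in fed replicates 1, 2 and 3. The starved values lay between the low fed replicate 1 and the other fed libraries, and the log2 fold change was -0.06 ± 0.59 (SE; edgeR adjusted p = 0.965). Its sign was positive in the limma fits without quality weights and without fed replicate 2 or 3 or starved replicate 1 (up to 0.36). The log2 fold change was 0.00 without starved replicate 3.

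Ghr 10010302 had 48.6, 36.4 and 46.1 CPM in starved libraries, against 37.2, 83.1 and 80.7 CPM in fed libraries. The groups overlapped through fed replicate 1, and the log2 fold change of -0.62 ± 0.34 missed the threshold (SE; edgeR adjusted p = 0.334). Without fed replicate 1 it was -0.91 and passed (edgeR adjusted p = 0.0238).

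STAT5B, which carries the receptor's signal to the nucleus, is also present as 2 genes. STAT5B 10021534 had 17.8, 19.8 and 15.9 CPM in starved libraries, against 17.6, 38.0 and 35.6 CPM in fed libraries. Fed replicate 1 was at the starved level and fed replicates 2 and 3 were above it, and the log2 fold change was -0.77 ± 0.32 (SE; edgeR adjusted p = 0.202). Without fed replicate 1 it was -1.05 and passed (edgeR adjusted p = 0.00997).

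STAT5B 10009770 had 30.5, 35.9 and 31.4 CPM in starved libraries, against 10.6, 36.5 and 28.9 CPM in fed libraries. Its groups overlapped, and its log2 fold change was 0.36 ± 0.41 (SE; edgeR adjusted p = 0.639), and -0.01 without fed replicate 1.

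The ligand igf1 encodes insulin-like growth factor I, the main growth factor that the liver releases under growth hormone. It had 50.9, 120.0 and 70.6 CPM in starved replicates 1, 2 and 3, against 44.4, 339 and 292 CPM in fed replicates 1, 2 and 3. Fed replicate 1 was the lowest of all 6 libraries, while fed replicates 2 and 3 were above every starved library. The means were 80.5 ± 35.6 CPM in starved and 225 ± 158 CPM in fed liver (SD, n = 3 each), a log2 fold change of -1.49 ± 0.68 that missed the threshold (SE; edgeR adjusted p = 0.247). It was -1.97 without fed replicate 1 and passed (edgeR adjusted p = 0.0179), and it also passed in limma with quality weights for each library (adjusted p = 0.0301). In the other 14 alternatives it did not pass, and the highest adjusted p was 0.575.

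The other ligand, igf2, encodes insulin-like growth factor II, which in fish stays abundant in liver after hatching. Its levels were 40.7, 73.3 and 52.7 CPM in starved libraries, against 86.4, 550.3 and 354 CPM in fed libraries. The groups did not overlap, although fed replicate 1 lay much closer to the starved libraries than to the other fed ones. The log2 fold change of -2.57 ± 0.62 fell just short (SE; edgeR adjusted p = 0.0547). It passed without fed replicate 1 (log2 fold change -3.03; adjusted p = 0.00388) and in 3 other alternatives, among them the DESeq2 Wald test (adjusted p = 0.000287). The authors' deposited table, from the same libraries, gives igf2 a fold change of 0.17 and a q-value of 0.000302, close to the DESeq2 result.

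Igfals is the acid-labile subunit that in mammals holds IGFs and an IGFBP in a long-lived plasma complex. It had the highest mean per-length level of all 16 members in both groups. In fed replicate 2, igf2 was higher, at 1028 against 927 FPKM. Igfals stood at 452, 465 and 495 CPM in starved libraries, against 959.7, 1069 and 1368 CPM in fed libraries. Every starved library was below every fed one. Fed replicate 1 was near the other fed libraries in TMM-scaled CPM, but in deposited FPKM it lay nearer the starved ones, which had 328 to 359 FPKM, against 510.3 FPKM in fed replicate 1 and 927 and 1037 FPKM in the other fed libraries. The means were 471 ± 22 CPM in starved and 1132 ± 211 CPM in fed liver (SD, n = 3 each), with a log2 fold change of -1.27 ± 0.31 (SE; edgeR adjusted p = 0.0544). It passed in 5 of 16 alternatives, with adjusted p from 1.71e-05 (DESeq2) to 0.223 (without starved replicate 2).

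IGF1R, the receptor through which IGFs act on target tissues, was nearly silent in liver. IGF1R 10016112 had 11, 14 and 11 counts in starved libraries, against 4, 10 and 18 counts in fed libraries, and a log2 fold change of -0.01 ± 0.53 (SE; edgeR adjusted p = 0.997). IGF1R 10018516 had 24, 16 and 4 counts in starved libraries, against 4, 5 and 6 counts in fed libraries, and was not tested because it failed the filter on low counts. Some edgeR alternatives did test IGF1R 10018516: no filter on low counts, and leaving out starved replicate 3 or any 1 fed library. There its log2 fold change was 1.13 to 1.73, never passing (edgeR adjusted p from 0.265 to 0.483). At this depth no difference between the groups was detected for IGF1R 10016112, and the counts of IGF1R 10018516 are too low to decide.

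**Figure D2:**
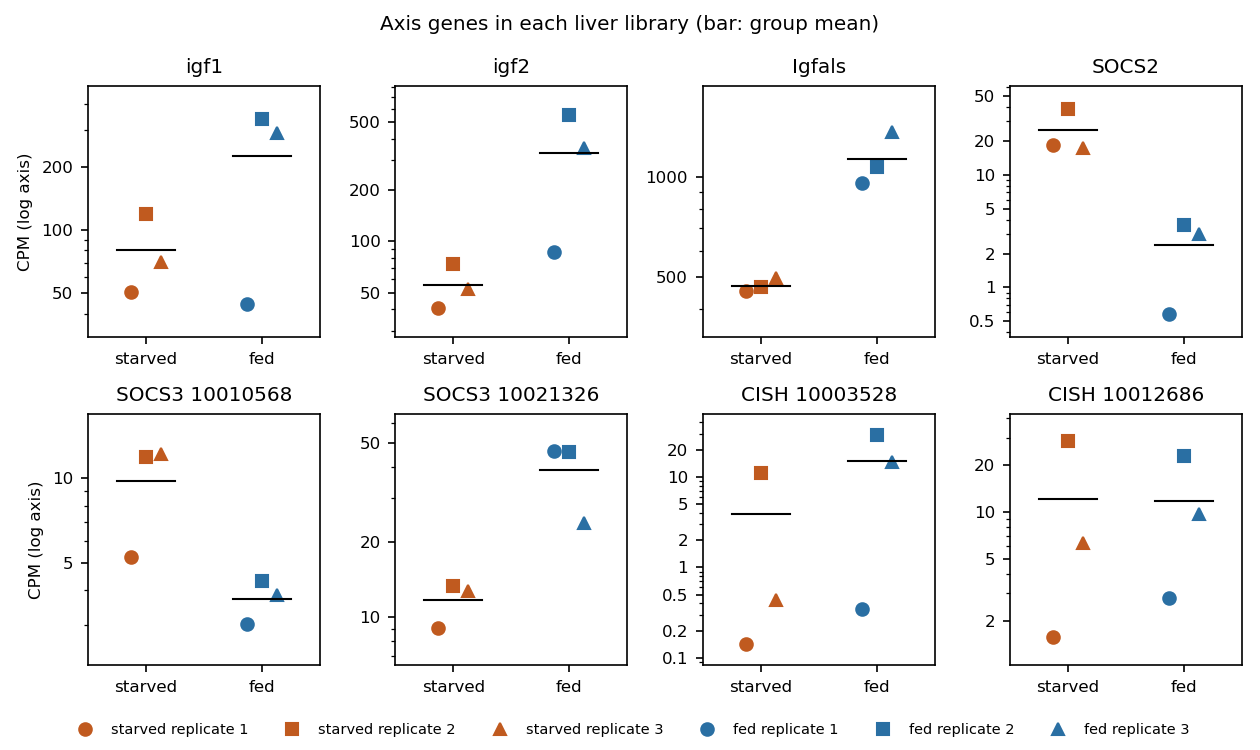
CPM on a log axis of 8 axis genes in each library, starved at left and fed at right, with a symbol for each replicate and a bar at the group mean. The starved libraries of SOCS2 lie at 17.5 to 38.5 CPM, all above the fed ones, those of Igfals lie at 452 to 495 CPM, all below, and fed replicate 1 (circle) is at or under the starved range for igf1.

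SOCS2 is the SOCS family member best known for restraining the growth hormone receptor, and mice without it grow large. It had 18.6, 38.5 and 17.5 CPM in starved replicates 1, 2 and 3, against 0.58, 3.61 and 3 CPM in fed replicates 1, 2 and 3. Every starved library was above every fed one, and fed replicate 1 was the lowest. The means were 24.9 ± 11.8 CPM in starved and 2.40 ± 1.60 CPM in fed liver (SD, n = 3 each), a log2 fold change of 3.32 ± 0.59 (SE; edgeR adjusted p = 0.021; higher in 3 of 3 starved libraries). Without fed replicate 1 the log2 fold change was 2.90 and still passed (adjusted p = 0.0123). Leaving out any of the other 5 libraries ended the call, with log2 fold changes of 2.87 to 3.74 and adjusted p from 0.053 to 0.0879. The authors' deposited table, from the same libraries, gives SOCS2 a fold change of 10.3 and a q-value of 8.48e-07.

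SOCS3 acts mainly on receptors of the interleukin-6 and leptin kind, and its 2 genes differed in direction. SOCS3 10021326 had 9.07, 13.4 and 12.7 CPM in starved libraries, against 46.5, 46.2 and 23.8 CPM in fed libraries. No starved library reached the lowest fed one, and the log2 fold change was -1.72 ± 0.33 (SE; edgeR adjusted p = 0.0249; lower in 3 of 3 starved libraries). That call ended without fed replicate 2 (adjusted p = 0.0797) and without starved replicates 1, 2 and 3 (adjusted p = 0.119, 0.103 and 0.111).

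SOCS3 10010568 had 5.24, 11.9 and 12.2 CPM in starved libraries, against 3.02, 4.31 and 3.85 CPM in fed libraries. Here every starved library was above every fed one, but the log2 fold change of 1.38 ± 0.38 did not pass (SE; edgeR adjusted p = 0.0798). It passed with the DESeq2 Wald test (adjusted p = 0.0166).

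SOCS1, a brake on interferon receptors, was low in both of its genes. Socs1 10009463 ranged from 1.54 to 5.60 CPM in starved and from 2.15 to 4.87 CPM in fed libraries, with a log2 fold change of -0.30 ± 0.56 (SE; edgeR adjusted p = 0.792). Socs1 10021026 ranged from 0.637 to 1.45 CPM in starved and from 0.116 to 0.697 CPM in fed libraries, with a log2 fold change of 1.27 ± 0.65 (SE; edgeR adjusted p = 0.295), and rested on 45 counts over the starved and 17 over the fed libraries.

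CISH, the first known member of the SOCS family and a classical STAT5 target, varied more between libraries of a group than between groups. CISH 10003528 had 0.142, 11.0 and 0.441 CPM in starved replicates 1, 2 and 3, against 0.348, 29.3 and 14.7 CPM in fed replicates 1, 2 and 3. Starved replicate 2 and fed replicates 2 and 3 were high, and the other 3 libraries held 2 to 6 counts each. The log2 fold change was -1.94 ± 1.52 (SE; edgeR adjusted p = 0.5), and -5.64 without starved replicate 2, also not passing (adjusted p = 0.175).

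CISH 10012686 had 1.56, 28.4 and 6.32 CPM in starved libraries, against 2.78, 22.7 and 9.62 CPM in fed libraries. The same library of each group was highest for both CISH genes, starved replicate 2 and fed replicate 2. The groups overlapped, and the log2 fold change was 0.04 ± 0.97 (SE; edgeR adjusted p = 0.988), turning to -0.42 without fed replicate 1 and to -1.58 without starved replicate 2.

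Among libraries, fed replicate 1 was the lowest fed library for 13 of the 15 tested members, where it was so for 42.9% of all tested genes, and the highest for 2 of the 15, against 41.6%. Starved replicate 2 was the highest starved library for 12 of the 15, against 33.6% of all tested genes. Both patterns were picked out after the values were seen, and the members are not independent of each other. Fed replicate 1 also had the low spliced share, the low TMM factor and the high hepatocyte marker sum in TMM-scaled CPM given above. The part of these in the member values was not tested.

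Levels were compared between genes as FPKM, the deposited value per length of coding sequence. In starved liver, Igfals led with 342 ± 15.8 FPKM, followed by igf1 with 148 ± 73.1 FPKM and igf2 with 87.7 ± 30.1 FPKM (SD, n = 3). The ranges of igf1 and igf2 overlapped, while Igfals stood clear above them. GHR 10008322, at 47.2 FPKM, lay only just below, with a highest value of 64.1 FPKM against a lowest of 65.8 FPKM for igf2. SOCS2 ranked 5 of 16 with 41.2 ± 22.0 FPKM in starved liver, overlapping with both growth hormone receptor genes. In fed liver, the order was Igfals with 825 ± 278 FPKM, igf2 with 568 ± 465 FPKM and igf1 with 449.7 ± 350.3 FPKM (SD, n = 3), and each neighbouring pair in the order overlapped, with SOCS2 at rank 13 and 4.26 ± 3.24 FPKM. Both IGF1R genes were last in both groups, at 0.2 and 0.247 FPKM in starved and 0.202 and 0.0942 FPKM in fed liver.

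**Figure D3:**
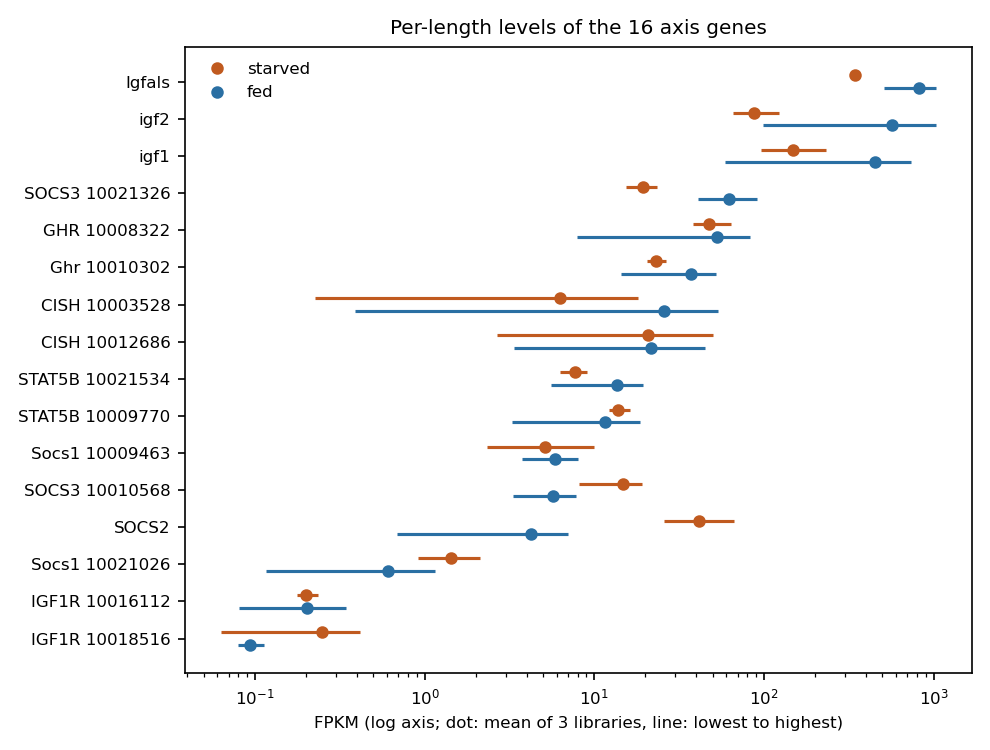
FPKM on a log axis of the 16 axis genes in starved and fed liver, ordered by the fed mean, with a dot at the mean of 3 libraries and a line from the lowest to the highest. Igfals has the highest mean in both groups, though its fed range overlaps that of igf2. SOCS2 averages 41.2 FPKM in starved liver and 4.26 FPKM in fed liver, and the IGF1R genes are lowest, with means of 0.247 FPKM or less.

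For the 6 names with 2 genes, the ratio of their FPKM within a library compares the copies without TMM scaling. A constant of 0.1 was added to each value, which weighs on copies with low levels. The log2 ratio of SOCS3 10010568 over SOCS3 10021326 was -0.90, -0.29 and -0.18 in starved libraries, against -4.03, -3.53 and -2.73 in fed libraries. The copies were thus closer in level in each starved library than in any fed one, with a difference of 2.97 on the log2 scale (exact two-sided permutation test, p = 0.1, adjusted over 6 pairs p = 0.2). With 3 libraries against 3, 0.1 is the smallest p the design allows.

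The log2 ratio of STAT5B 10009770 over STAT5B 10021534 was 0.76, 0.84 and 0.95 in starved libraries, against -0.74, -0.08 and -0.32 in fed libraries. The ratio was above 0 in each starved library and below 0 in each fed one, including fed replicate 1. In fed replicate 2 the copies were nearly equal, at 18.5 and 19.5 FPKM. The group means of the ratio differed by 1.23 (exact permutation p = 0.1, adjusted p = 0.2). For the SOCS1 pair the groups did not overlap either, with mean log2 ratios of 1.54 in starved and 3.35 in fed liver, though the lower gene had a single count in fed replicate 1, and with a constant of 1 the difference was -0.96 in place of -1.81. The ratios of the GHR, IGF1R and CISH pairs overlapped between groups, with differences of 0.85, -0.61 and -2.08 (exact permutation p = 0.3, 0.4 and 0.2). The IGF1R levels are close to the added constant, and with a constant of 1 that difference was -0.18.

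**Figure D4:**
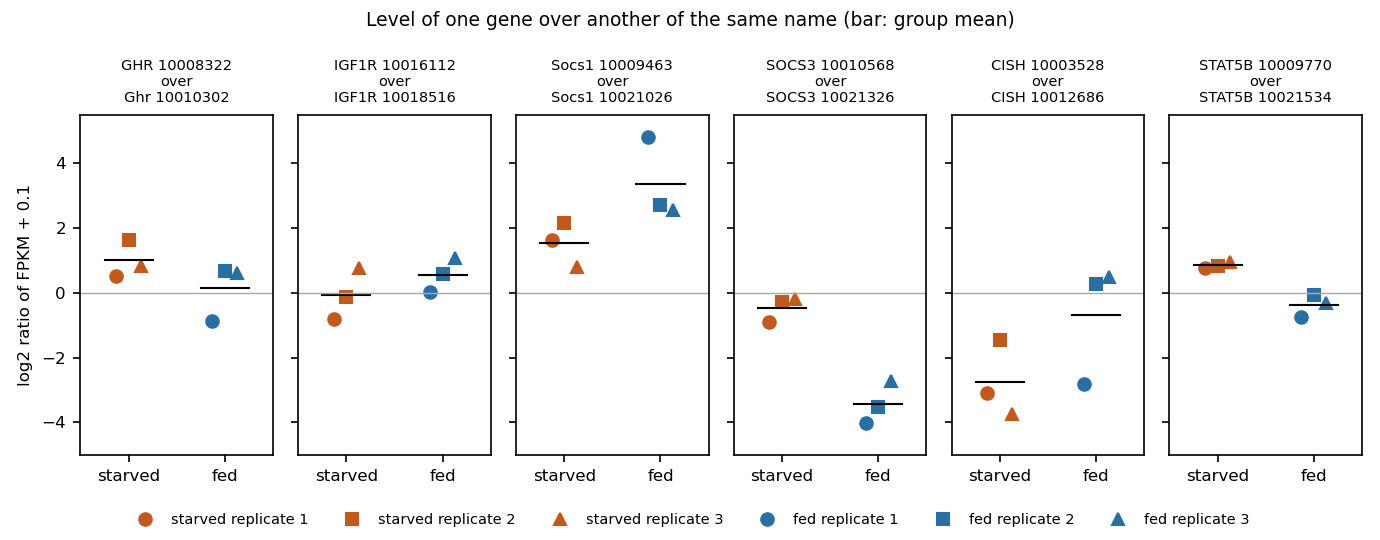
Log2 ratio of FPKM + 0.1 between the 2 genes of a name in each library, starved at left and fed at right, with a symbol for each replicate and a bar at the group mean. The SOCS3, STAT5B and SOCS1 pairs show no overlap between groups, and the group means of the SOCS3 pair are -0.46 in starved and -3.43 in fed liver.

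Across the 6 libraries, the genes whose log2 CPM most resembled that of igf1, of 6558 named genes averaging at least 3 log2 CPM, were atg3, SIRT3, KLF9, Plekhm1 and lpcat2, with Pearson r from 0.988 to 0.993. The levels of atg3 differed little, from 15.9 to 17.6 CPM in starved and from 15.2 to 20 CPM in fed libraries. KLF9, a hormone-responsive transcription factor, spanned a wide range, with 5.24, 16.1 and 6.32 CPM in starved and 2.9, 65 and 77.7 CPM in fed libraries, low again in fed replicate 1. Among tested members the most similar to igf1 were CISH 10003528 and STAT5B 10021534, both at r = 0.941, and igf2 at 0.905. SOCS2 had r = -0.070 with igf1. Most similar to SOCS2 were ERN1, Mst1r, hnf1ba, fmnl3 and NET1, with r from 0.995 to 0.998. These values describe 6 libraries that share depth and scaling, and the highest of so many correlations are large by selection.

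Around the axis, 3 lists of pathway genes outside the members, and genes that act at the receptor, were read from the same fit. Of 15 tested genes in a list drawn up for IGF carriers and their release, 3 rose, 0 fell and 12 did not pass (median log2 fold change 0.61), where 2.18% of all tested genes rose and 2.98% fell. The list also holds the receptor gene Igf2r and the mRNA-binding protein genes IGF2BP2 and igf2bp3, which are not IGF carriers and did not pass. Igfbp1 10022304, a binding protein that keeps IGFs from their receptor, had 624, 265 and 452 CPM in starved libraries, against 1.16, 0.761 and 1.62 CPM in fed libraries (edgeR adjusted p = 0.00119). Stc2 10007884, whose product in mammals blocks the proteases that free IGFs from binding proteins, had 28.8, 30.4 and 12.1 CPM in starved libraries, against 0.348, 0.19 and 0.462 CPM in fed libraries (edgeR adjusted p = 0.00239). Both groups were far apart in every library for these genes. IGFBP3 10022305, another carrier, had 11, 47 and 15 counts in starved libraries, against 0 in each fed library (edgeR adjusted p = 0.033). Other genes of the same names did not follow: IGFBP1 10014677 averaged 19.5 CPM in starved and 12.6 CPM in fed liver (edgeR adjusted p = 0.609), and Stc2 10022702 averaged 1.12 CPM in starved and 2.07 CPM in fed liver (edgeR adjusted p = 0.244).

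JAK2, the kinase bound to the growth hormone receptor, has 3 genes, named here after their values were seen. They had log2 fold changes of 0.29 to 0.69, none passing (edgeR adjusted p from 0.471 to 0.677). SOCS7 10001553, chosen after its values were seen, had 17.8, 12.1 and 45.9 CPM in starved libraries, against 5.57, 3.36 and 8.39 CPM in fed libraries, without passing (edgeR adjusted p = 0.0656). SOCS5 10016335, Socs5 10023743 and SOCS6 10006027, also chosen after their values were seen, had log2 fold changes of -0.33, -0.49 and -0.02. None of them passed (edgeR adjusted p from 0.603 to 0.986).

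Of 36 tested genes of insulin and IGF receptor signalling, 4 rose, 1 fell and 31 did not pass (median 0.28), against 2.18% higher and 2.98% lower over all tested genes, so the lower count is near the background. Irs2, the adaptor that links insulin receptors to phosphoinositide 3-kinase, rose in 2 of its 3 tested genes, with log2 fold changes of 6.21 ± 0.41 for Irs2 10010726 and 2.55 ± 0.39 for Irs2 10010464 (SE; edgeR adjusted p = 0.00119 and 0.0131). The third, irs2-b, averaged 32.4 CPM in starved and 9.3 CPM in fed liver without passing (edgeR adjusted p = 0.0796). FOXO4, a transcription factor that insulin signalling holds out of the nucleus, had 16.2, 14.6 and 14.9 CPM in starved libraries, against 1.62, 3.61 and 5.39 CPM in fed libraries (edgeR adjusted p = 0.0253). INSR 10022135, an insulin receptor gene, averaged 38.4 ± 7.42 CPM in starved and 17.4 ± 0.231 CPM in fed liver (SD, n = 3 each; edgeR adjusted p = 0.0332). The other tested insulin receptor gene, Insr 10005465, had a log2 fold change of 1.12 without passing (edgeR adjusted p = 0.193). The gene that fell was PIK3R1 10018272, a regulatory subunit of phosphoinositide 3-kinase, with 73.6, 92.6 and 70.1 CPM in starved libraries, against 161, 653 and 537 CPM in fed libraries (edgeR adjusted p = 0.0309). Other PIK3R1 genes did not pass: PIK3R1 10002400 had a log2 fold change of -0.29 and PIK3R1 10011583 of -1.21 (edgeR adjusted p = 0.775 and 0.0876).

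Of 26 tested liver factors known in mammals to act on igf1 or on the growth hormone response, 1 rose, 4 fell and 21 did not pass (median -0.19), against the same 2.18% higher and 2.98% lower, so the higher count is near the background. CEBPA, a liver transcription factor, had 59.4, 56.1 and 77.6 CPM in starved libraries, against 485, 649 and 612 CPM in fed libraries (log2 fold change -3.18; edgeR adjusted p = 0.00417). Its relative Cebpb averaged 110.1 ± 23.5 CPM in starved and 479 ± 173 CPM in fed liver (SD, n = 3 each; edgeR adjusted p = 0.0218). PPARA 10017048, a nuclear receptor of the fasting response, had a log2 fold change of -5.40 (edgeR adjusted p = 0.00339), while ppara 10009683 had one of 1.62 that missed the threshold (edgeR adjusted p = 0.0656). Sirt1, a deacetylase, had a log2 fold change of -1.65 (edgeR adjusted p = 0.0195), and hnf1ba, the gene that rose, one of 1.48 (edgeR adjusted p = 0.0273).

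**Figure D5:**
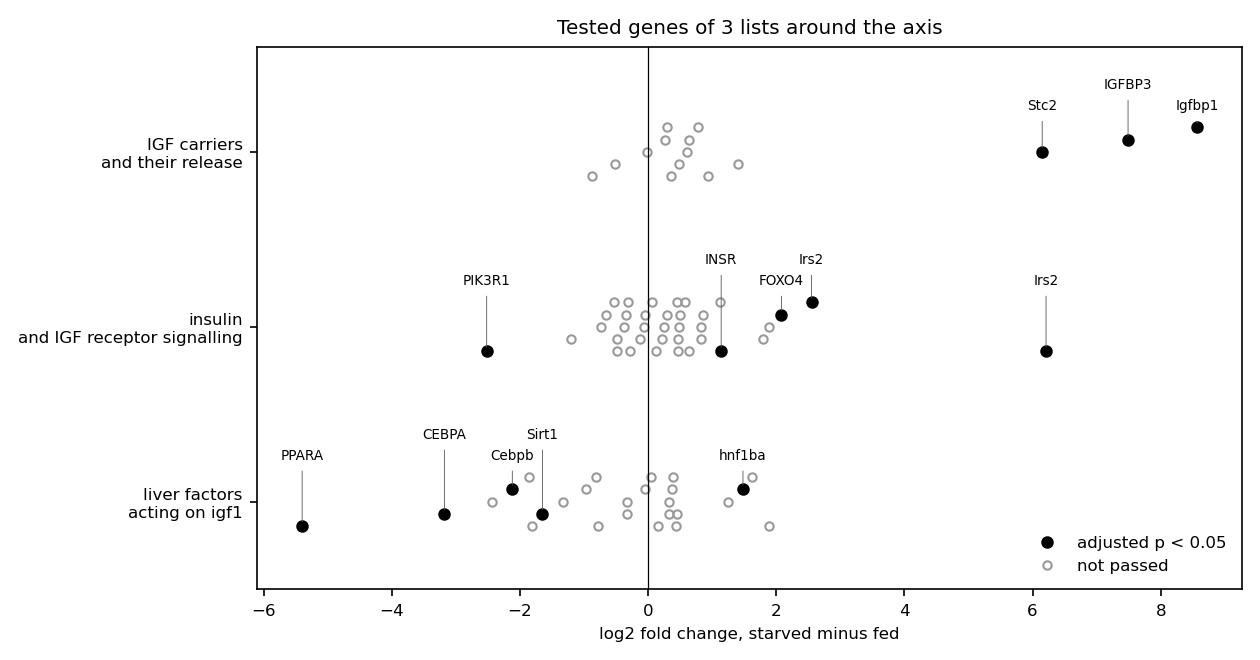
Log2 fold change, starved minus fed, of every tested gene in 3 lists around the axis; filled dots passed at an adjusted p under 0.05 and carry their symbols, and the vertical spread within a list only separates points. Igfbp1 at 8.57 and Irs2 at 6.21 lie at the right and PPARA at -5.40 at the left; the fitted value of IGFBP3 depends on how its 0 counts in fed liver are handled.

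The calls of Igfbp1, Stc2, the more changed Irs2 gene, CEBPA and PPARA held in all 16 alternatives. Those of IGFBP3, PIK3R1, INSR, Sirt1 and hnf1ba were each lost when any of the 5 libraries besides fed replicate 1 was left out (adjusted p up to 0.156), that of FOXO4 without fed replicate 2 or any 1 starved library (up to 0.107), that of Cebpb without any 1 starved library (up to 0.112) and that of Irs2 10010464 without starved replicate 1 or 2 (up to 0.0682). In limma on log2(FPKM + 1) and on log2(FPKM + 0.1), the calls of PIK3R1, INSR, Sirt1 and hnf1ba were also lost (adjusted p from 0.0508 to 0.118). That of FOXO4 was lost in limma on log2(FPKM + 0.1) (adjusted p = 0.067).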

How the data were processed

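Liver RNA was sequenced in paired reads from TruSeq Stranded mRNA libraries, per the labels' protocols. The submitters' processing notes list HTSeq, Cufflinks, HISAT2 and Trimmomatic without versions or roles; the genome build and the use of strand in counting are not given in the sources used here, so overlapping or similar genes can compete for the same reads. Gene-level counts were deposited by the authors as whole numbers. The deposited FPKM values equal the count over the column total and a coding length per gene. The authors' deposited table holds a fold and a q-value, with the test not given. The fold is a ratio, starved over fed, with the same sign as the FPKM ratio for 96.8% of genes. Its log2 values equalled those of the DESeq2 fit for igf2 (-2.56), SOCS2 (3.36) and Igfals (-1.26). That table is therefore not a support separate from the DESeq2 fit. Read quality and GC are deposited as percent.

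Groups were taken from titles. Counts were fitted with edgeR 4.0.16 in R 4.3.3 (filterByExpr, TMM, robust quasi-likelihood), with SE derived from the F statistic. Alternatives used DESeq2 1.42.0, limma 3.58.1, other scalings, filters and thresholds, log2(FPKM + 1) and log2(FPKM + 0.1), and each library left out. Ratios between copies used FPKM + 0.1. The edgeR, DESeq2 and limma-voom fits, and limma on log2(CPM + 1), were tested on simulated counts. These held no outlying library like fed replicate 1. Calls were checked for edgeR alone, and the other fits by how their fold changes correlated with those simulated. The limma fits on FPKM, the fit with quality weights, the copy ratios and their permutation tests were not tested in that way. Libraries were not repeats of each other (chi-square per degree of freedom 33.6 to 149). The members were named by rule, with up to 4 called genes per list and the 5 named genes most like igf1 and most like SOCS2. Other names are marked, are copies, describe what a list holds (Igf2r, IGF2BP2 and igf2bp3), or are INSR and hnf1ba (the fifth called in their lists). Members and lists were chosen with earlier results of these data known. The rule for paralog endings also took Bcl6b and HBAD. A further pathway list, of JAK-STAT genes, was tested, and its counts are not reported here. No sequences were used here.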

Additional observations from a re-analysis of the deposited data

How the results depend on the processing

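Of 238 member values under the alternatives, 188 kept direction and side of the threshold, 16 came to pass, 9 no longer passed and 25 changed sign. Members called higher and lower, 1 and 1, became 2 and 3 with DESeq2, 6 lower with quality weights, 2 lower with limma-voom, with no filter on low counts and with the non-robust fit, and 0 and 0 at an adjusted p under 0.01. With 1 library left out they ranged from 0 to 1 higher and 0 to 6 lower. Pathway genes called over 4 lists, 8 higher and 6 lower, became 17 and 12 with DESeq2, 16 and 13 with quality weights, 3 lower in both FPKM fits, and 3 and 2 at the stricter threshold, and ranged from 3 to 16 and 2 to 15 with 1 library left out. All genes called, 291 and 397, became 702 and 953 with DESeq2, 909 and 1042 with quality weights, 189 higher on log2(FPKM + 0.1), and 45 and 65 at the stricter threshold, and ranged from 50 to 804 and 49 to 900. The cause was not tested.

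Sign changes were in genes whose edgeR log2 fold change over all 6 libraries was smaller in size than its SE. These fold changes were -0.30 to 0.36, with SE of 0.41 to 0.97, which does not show that the genes were unchanged. GHR 10008322 had 0.35 with limma-voom, 0.33 on log2(FPKM + 1) and 0.36 on log2(FPKM + 0.1), and -0.53 to 0.30 with 1 library left out. IGF1R 10016112 had 0.01 with DESeq2, upper-quartile scaling and no filter, 0.10 with limma-voom, 0.00 and 0.08 in the FPKM fits, and -0.26 to 0.58. CISH 10012686 had -0.47 with limma-voom, -1.03 with quality weights, -0.28 and -0.32 in the FPKM fits, and -1.58 to 0.96. Socs1 10009463 ranged from -1.14 to 0.01 and STAT5B 10009770 from -0.01 to 0.73. The SOCS3 copy difference ranged from 2.67 to 3.32, that of STAT5B from 1.05 to 1.38, SOCS1 from -2.21 to -1.09, CISH from -3.15 to -1.49, GHR from 0.36 to 1.11 and IGF1R from -1.01 to -0.23 with 1 library left out. With FPKM + 1 these differences were 2.79, 1.11, -0.96, -1.60, 0.81 and -0.18 for SOCS3, STAT5B, SOCS1, CISH, GHR and IGF1R. No paired analysis was possible because the title codes of the groups share only the letter E, on 1 library of each, and fewer than 2 shared codes allow no block. Low counts limit the IGF1R, CISH 10003528 and Socs1 10021026 values, the last with 1 count in fed replicate 1.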
